A study of Mus musculus with 5 samples.

Results

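This report follows 43 genes of the cell division cycle through single-cell RNA sequencing (scRNA-Seq) of tumor-draining lymph nodes (TDLNs) and tumors from mice. The members were a list of named S phase and G2/M phase genes, and all 43 were found among the 32285 genes of each of the 3 TDLN matrices and among the 33696 genes of both MC38 matrices. Of these, 16 act mainly in S phase, 26 in G2 and mitosis, and Stmn1, which encodes the microtubule regulator stathmin, was kept apart and entered neither phase sum.

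Male C57BL/6J mice aged 8 to 10 weeks carried subcutaneous tumors of TRAMP-C2, a mouse prostate adenocarcinoma line, or of MC38, a mouse colorectal adenocarcinoma line. Dosing was with isotype antibody or with checkpoint inhibition (CPI), antibodies to CTLA4 and PD-1 together, given on days 3, 6, and 9, then vehicle or the JAK1 inhibitor ABT-317 at 20 mg/kg on day 12, and tissues were taken on day 15. TRAMP-C2 mice were dosed from implantation, whereas MC38 mice entered treatment once tumors had reached a minimal size. The 4 groups in MC38 tumors were therefore isotype, CPI, CPI + ABT-317, and isotype + ABT-317, each marked by 1 antibody hashtag in each of 2 droplet reactions. A hashtag stands for a treatment and pools its mice, so that no value belongs to a single mouse, and in the TDLN matrices every antibody count was 0, so that TDLN treatments were not compared. Live CD45+ and CD45- tumor cells had been sorted and mixed in equal numbers before loading, which bears on the share of each cell class, whereas TDLN cells were unsorted. Reactions of a tissue are the replicates here, and p-values measure only the spread between reactions or sums, which may be technical.

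A dividing cell first loads the MCM helicase onto replication origins and then copies its DNA in S phase with PCNA, its partner Pclaf, and enzymes that supply nucleotides (Rrm1, Rrm2, Tyms, Tk1). In G2 and mitosis it depends on the kinase Cdk1 with its cyclins (Ccna2, Ccnb1, Ccnb2), on the Aurora and Polo kinases, on kinesins and centromere proteins of the spindle, and on the anaphase-promoting complex with Cdc20 and Ube2c, which destroys cyclins so that the cell can exit mitosis. Transcription of S phase genes is driven by E2F factors. Many G2/M genes are repressed in resting cells by the DREAM complex and activated by MuvB with B-MYB and FOXM1, at the cell cycle homology region (CHR) and nearby CCAAT boxes.

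The promoters of the members carried these letters by phase list. RefSeq windows from 250 bases before to 50 bases after the start (GRCm38.p6) were matched for 36 of the 43 members. A CHR core, TTTGAA or its reverse complement TTCAAA, was in 17 of 22 G2/M promoters (77.3%) and 2 of 14 S promoters (14.3%), against 18.1% of 27025 promoters of all genes. The pentamer CCAAT or ATTGG was in 20 of 22 G2/M promoters (90.9%) and 11 of 14 S promoters (78.6%), against 37.9% of all. An E2F word (TTTGGCGC, TTTCCCGC, TTTGCCGC, TTTCGCGC or their reverse complements) was in 6 of 14 S promoters (42.9%) and 1 of 22 G2/M promoters, against 2.32% of all. These are counts of letters in a window and were not tested. The windows below show 2 G2/M members, Ube2c and Cdc20, and 2 S members, Pclaf and Mcm3, with matched words in capitals, written 5′ to 3′ on the strand of the gene. Those of Ube2c and Cdc20 hold the CHR core and CCAAT boxes, and those of Pclaf and Mcm3 hold E2F words. They lie at chr2:164769679-164769978 (plus strand) for Ube2c, chr4:118437294-118437593 (minus strand) for Cdc20, chr9:65890073-65890372 (plus strand) for Pclaf, and chr1:20820263-20820562 (minus strand) for Mcm3.
Ube2c: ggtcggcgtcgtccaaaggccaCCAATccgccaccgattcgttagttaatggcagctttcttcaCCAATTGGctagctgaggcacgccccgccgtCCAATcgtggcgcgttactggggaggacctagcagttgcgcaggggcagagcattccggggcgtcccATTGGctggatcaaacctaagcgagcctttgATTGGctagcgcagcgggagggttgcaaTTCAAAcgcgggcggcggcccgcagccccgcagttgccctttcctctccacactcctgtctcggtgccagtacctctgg
Cdc20: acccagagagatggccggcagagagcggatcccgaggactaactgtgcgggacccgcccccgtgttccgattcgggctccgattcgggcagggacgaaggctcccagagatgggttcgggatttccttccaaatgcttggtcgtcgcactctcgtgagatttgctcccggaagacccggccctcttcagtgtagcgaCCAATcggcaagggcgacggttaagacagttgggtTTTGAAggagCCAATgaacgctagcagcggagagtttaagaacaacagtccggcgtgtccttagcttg
Pclaf: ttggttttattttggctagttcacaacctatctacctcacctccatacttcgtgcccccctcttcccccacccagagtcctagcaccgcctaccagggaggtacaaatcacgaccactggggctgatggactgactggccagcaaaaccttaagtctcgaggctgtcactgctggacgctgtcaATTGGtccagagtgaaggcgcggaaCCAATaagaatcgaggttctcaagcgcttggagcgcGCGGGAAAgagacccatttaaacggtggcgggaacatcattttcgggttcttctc
Mcm3: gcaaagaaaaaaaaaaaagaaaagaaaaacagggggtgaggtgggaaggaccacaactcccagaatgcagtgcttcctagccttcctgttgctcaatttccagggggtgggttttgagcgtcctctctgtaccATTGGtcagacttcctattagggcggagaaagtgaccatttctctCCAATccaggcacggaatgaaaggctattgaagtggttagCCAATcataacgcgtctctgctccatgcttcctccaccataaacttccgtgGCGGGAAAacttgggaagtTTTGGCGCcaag

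Expression was read as UMIs, the molecular tags that let each captured RNA molecule be counted once. Barcodes with at least 200 genes and under 10% mitochondrial UMIs numbered 62571, 56509, and 7050 in TDLN reactions 1 to 3, with median UMIs of 1713 to 1905, and 33762 and 23332 in MC38 reactions 1 and 2, with medians of 8781.5 and 9998. Each pair of reactions shared 223 to 4842 barcode sequences, and shared sequences were not removed. A barcode was called cycling when it held UMIs of at least 3 distinct members (Stmn1 left out) after it had been thinned at random to 1000 UMIs, so that deep and shallow barcodes had the same chance, and shallower barcodes were left out of these shares. Brackets after a share give its exact Clopper-Pearson 95% interval, which covers counting error only. Cell classes were set by marker genes that include no member. Barcodes with markers of opposing classes were called mixed, and MC38 barcodes that matched no class were split by whether they held a UMI of Ptprc, the gene of the pan-leukocyte antigen CD45.

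The labels were only partly borne out by their markers. In TDLNs, 65.5% to 72.7% of barcodes were mixed, 91.7% of barcodes in reaction 1 held both T and B cell marker UMIs, and 52.3%, 16.5%, and 10.1% of barcodes held a hemoglobin or other erythroid UMI. The T-like class held 3.69%, 9.19%, and 5.40% of barcodes in reactions 1 to 3, and the B-like class 1.84%, 1.74%, and 1.23%. In MC38 tumors no barcode met the epithelial marker list, and the largest set, 55.8% and 51.6% of barcodes, stayed unnamed and Ptprc-free. Cst6, Cox6a2, and Shisal2b were among its leading genes, at only 1.97, 1.94, and 1.84 fold over the other barcodes. The macrophage-like class was led by C1qa and Apoe, the fibroblast-like class by Col1a1, the T-like class by Cd3d and Themis, and the endothelial-like class by Gpihbp1 and Cdh5. Of these, C1qa, Col1a1, Cd3d, Themis, and Cdh5 are markers that set the classes, so that their lead followed from the class rule. Apoe and Gpihbp1 are on no marker list.

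The share of barcodes called cycling was lower in TDLNs than in MC38 tumors. It was 2.93% (2.80–3.07), 4.18% (4.01–4.36), and 5.45% (4.88–6.06) in TDLN reactions 1 to 3, and 40.9% (40.3–41.4) and 37.7% (37.1–38.4) in MC38 reactions 1 and 2. The groups of reactions did not overlap. In TDLNs most called barcodes held 3 or 4 distinct members and no background share was available, so that the shares there are not read as shares of dividing cells. A thinned TDLN barcode held 0.602, 0.694, and 0.729 member UMIs on average, with a variance of 1.21, 1.34, and 1.37 times the mean, where 1 is what counting alone gives, and 0.187%, 0.340%, and 0.407% of barcodes held at least 5 distinct members. In MC38 the means were 2.71 and 2.56 UMIs, the variance was 2.71 and 3.26 times the mean, and 16.8% and 17.6% of barcodes held at least 5. After thinning, 53.2% to 57.3% of TDLN barcodes held no member UMI at all, against 22.5% and 31.1% in MC38. Tissue, tumor line, sort, and Cell Ranger version moved together, and their parts cannot be told apart.

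Within TDLNs no class could be set apart from the others by cycling share at n = 3 reactions. T-like and B-like barcodes were themselves only weakly set apart by their markers. T-like barcodes were cycling in 1.81%, 4.09%, and 4.63% of cases, lower than the other classes in all 3 reactions, by 0.707 ± 0.546 percentage points (mean ± SD, n = 3 reactions, two-sided exact sign-flip permutation p = 0.25, the smallest that 3 reactions allow). B-like barcodes were cycling in 2.00%, 3.74%, and 2.44%, lower by 1.47 ± 1.37 points (same exact permutation test, p = 0.25). Both directions turned where a cycling barcode needed at least 5 distinct members, with T-like barcodes higher by 0.0939 points and B-like by 0.161 points. Plasma cell-like barcodes showed the highest shares, 4.10%, 10.3%, and 14.3%, but these rested on 5 of 122, 6 of 58, and 1 of 7 barcodes. The difference of 5.40 ± 3.90 points from the other classes also had an exact permutation p of 0.25. Mixed barcodes, at 2.95%, 3.97%, and 5.55%, lay within 1 point of the other classes in each reaction (exact permutation p = 1).

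B-like barcodes that also held a UMI of a germinal center gene were called cycling in 7 of 184 barcodes in reaction 1, 12 of 148 in reaction 2, and 1 of 9 in reaction 3, or 3.804%, 8.11%, and 11.1%. Those shares were above the share of all B-like barcodes in each reaction, although the intervals overlapped in all 3 (in reaction 1, 1.54–7.68 against 1.21–3.102). T-like barcodes with a regulatory T cell UMI were cycling in 2.29%, 5.28%, and 5.95%. The share was 2.62%, 3.40%, and 3.94% in those with a Cd8a or Cd8b1 UMI and no Cd4 UMI. Those with a Cd4 UMI and no Cd8a or Cd8b1 UMI were called cycling in 0 of 137 barcodes, then 22 of 300 (7.33%) and 0 of 9. The first allows a share of up to 2.66% by the exact interval. A single UMI does not place a barcode in a subset where 84.0% to 91.7% of all TDLN barcodes hold both T and B cell marker UMIs, no background share was available, and the subsets were not tested.

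Levels of single members are given in CPM, the UMIs of a gene as a rate over all gene UMIs of the sum. Pcna, the sliding clamp of the DNA polymerases, was at 88.9, 69.2, and 66.2 CPM in reactions 1 to 3, and the centromere histone Cenpa at 68.0, 61.8, and 67.5 CPM. Pclaf was at 24.5, 40.6, and 49.1 CPM, and the proliferation antigen Mki67 at 15.5, 20.1, and 24.6 CPM. Stmn1 was at 62.2, 114, and 138 CPM. In the edgeR fit of class sums, 0 of 43 members passed an adjusted p of 0.05 in T-like or in B-like barcodes, where 4.17% and 8.42% of 12952 genes were called in either direction. At an unadjusted p under 0.05 there were 1 and 5 members, and DESeq2 called 0 in both. With the reaction as a block edgeR called 1 in T-like and 5 in B-like barcodes, where 18.0% and 15.8% of genes were called, and without reaction 1 it called 2 in B-like barcodes.

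**Figure D1:**
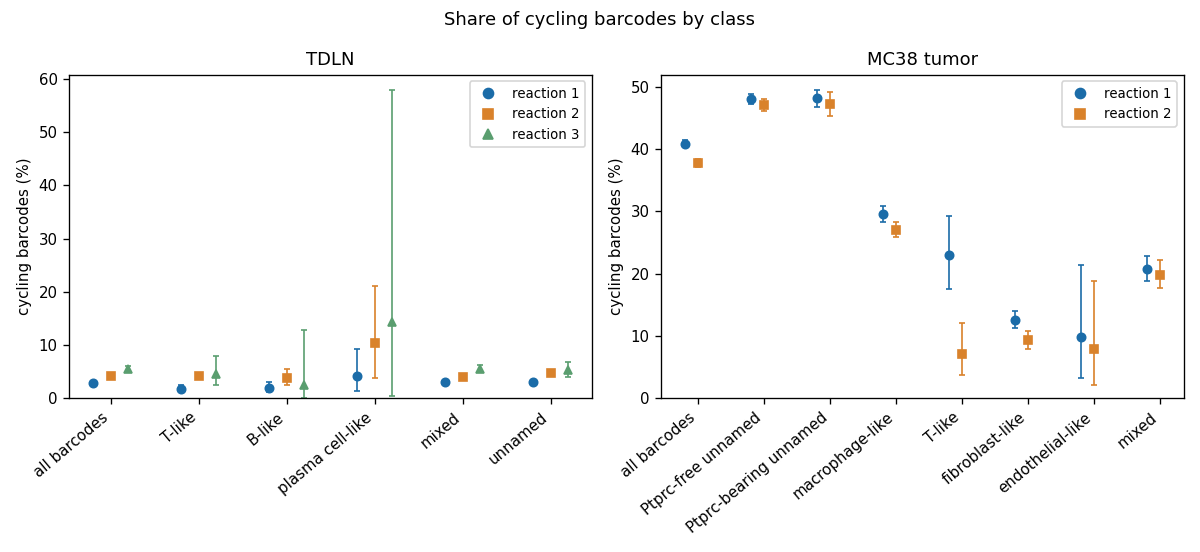
Share of cycling barcodes by class, in percent of barcodes with at least 1000 UMIs, in TDLNs (left) and MC38 tumors (right); each point is 1 reaction, bars are exact 95% intervals, and the panels have different axes. TDLN shares lie under 6% except in plasma cell-like barcodes, and in MC38 the unnamed sets lie at 47.1% to 48.2%, macrophage-like barcodes at 27.1% and 29.5%, and fibroblast-like barcodes at 9.34% and 12.6%.

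In MC38 tumors both unnamed sets had higher cycling shares than the macrophage-like and fibroblast-like classes. The share of Ptprc-free barcodes was 48.1% (47.3–48.8) in reaction 1 and 47.1% (46.2–48.0) in reaction 2, and the Ptprc-bearing unnamed barcodes lay beside them at 48.2% (46.8–49.6) and 47.2% (45.2–49.2). Macrophage-like barcodes followed at 29.5% (28.3–30.8) and 27.1% (25.9–28.3), then fibroblast-like barcodes at 12.6% (11.3–14.0) and 9.34% (7.97–10.9). The intervals of these 3 levels did not overlap in either reaction. T-like barcodes differed between reactions, at 23.0% (17.5–29.2) of 213 barcodes and 7.101% (3.72–12.1) of 169, and the 10 genes that lead the Ptprc-free set stood at 316 and 142 CPM in them. Endothelial-like barcodes were at 9.80% and 7.84% of 51 barcodes each, and their intervals overlapped those of fibroblast-like barcodes.

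The place of the fibroblast-like class depended on how it was gated. Another rule asked for at least 3 detected markers of a class and no marker UMI of another, but for no marker density. By it 39.0% and 36.7% of fibroblast-like barcodes were cycling, above macrophage-like barcodes at 28.4% and 25.4%. Its fibroblast-like barcodes had median UMIs of 12894 and 22248.5, against 6471.5 and 8593 in the main class. They are a different set and are not read as purer fibroblasts. Ptprc-free unnamed barcodes carried fibroblast markers at a median of 18.1 and 16.1 per 10000 UMIs, against 221 and 203 in the fibroblast-like class. The same rule left only 21 and 19 Ptprc-free barcodes deep enough to score, of which 28.6% and 31.6% were cycling. The Ptprc-free share then exceeded the macrophage-like one by 3.18 points, against 19.3 under the main rule (means of 2 reactions).

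Granulocyte-like cells, which have left the cell cycle, had been meant to show the level of background, but only 21 and 3 barcodes were deep enough. Of these, 9 (42.9%, 21.8–66.0) and 0 were cycling, so that they set no usable level of background. In reaction 1 their interval took in the macrophage-like share of 29.5% and lay above the fibroblast-like share of 12.6%. The MC38 shares are therefore also not read as shares of dividing cells. The 10 genes that lead the Ptprc-free set, which were chosen for being low in other barcodes, stood at 35.6% and 26.3% of their Ptprc-free level in fibroblast-like barcodes, where the 42 members stood at 45.5% and 35.8% of theirs. In T-like barcodes they stood at 27.2% and 11.7%, with the members at 54.0% and 34.3%, and in macrophage-like barcodes at 11.9% and 6.91%, with the members at 72.4% and 68.8%. In granulocyte-like barcodes they stood at 65.2% and 11.7%, with the members at 65.7% and 22.4%. Ptprc-bearing unnamed barcodes held them at 85.0% and 85.9%, with the members at 96.3% and 95.5%. The 2 unnamed sets are therefore not read as separate populations. The part of free RNA in the class shares was not tested.

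Summed over the 42 members, the level was 3399 and 3481 CPM in Ptprc-free barcodes, 2462 and 2394 CPM in macrophage-like, 1547 and 1245 CPM in fibroblast-like, 1835 and 1192 CPM in T-like, and 1173 and 1257 CPM in endothelial-like barcodes. Ube2c, the ubiquitin-conjugating enzyme that works with the anaphase-promoting complex, was at 448 and 477 CPM in Ptprc-free, 194 and 199 CPM in macrophage-like, and 146 and 118 CPM in fibroblast-like barcodes. Rrm2, the small subunit of ribonucleotide reductase, was at 97.6 and 124 CPM in Ptprc-free but 27.7 and 24.5 CPM in macrophage-like barcodes, below the fibroblast-like 40.8 and 36.8 CPM. Mki67 ran the other way, with 148 and 127 CPM in macrophage-like barcodes against 65.8 and 50.0 CPM in Ptprc-free ones. Pclaf was nearly level in both, at 151 and 161 CPM against 155 and 157 CPM, and was at 65.7 and 54.6 CPM in fibroblast-like barcodes.

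Each class was then compared with the mean of the other 6 classes of the fit by edgeR, with p-values adjusted over 16322 genes. In Ptprc-free barcodes 42 of 43 members were higher, where 32.3% of all genes were called higher, and the median log2 difference was 1.00 over members and 0.30 over all genes. The largest among S members was Rrm2 (log2 difference 2.23 ± 0.16 SE, adjusted p = 4.4e-08), and among G2/M members Cdk1, the mitotic kinase (1.95 ± 0.13, adjusted p = 2.9e-08), and Ube2c (1.93 ± 0.13, adjusted p = 2.8e-08). Mki67 was the member that did not pass, at −0.03 ± 0.20. Under DESeq2 41 members were higher, with a median of 0.78 against −0.16 over all genes, and calls over all genes went from 5270 higher and 2597 lower to 3918 higher and 6276 lower. In the Ptprc-bearing unnamed barcodes 42 members were also higher, again all but Mki67, where 26.7% of genes were called higher.

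In macrophage-like barcodes 32 of 43 members were higher and none lower, where 25.6% of all genes were called higher (median 0.61 over members, 0.10 over all genes). Mki67 led with a log2 difference of 1.40 ± 0.18 (adjusted p = 8.3e-06), then Mcm5, a subunit of the replicative helicase (1.35 ± 0.14, adjusted p = 6.3e-07), Cdca3 (1.35 ± 0.15), and Stmn1 (1.14 ± 0.13). The 11 members that missed the threshold were Mcm4, Rrm2, Gins2, Cdc6, Cdc45, Top2a, Cdk1, Cdc20, Aurka, Bub1, and Kif20a. Under DESeq2, 33 members were higher, and calls over all genes went from 4186 higher and 2601 lower to 4250 higher and 5079 lower.

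Fibroblast-like barcodes had 31 of 43 members lower and none higher, where 14.3% of all genes were called lower (median −0.67 over members, 0.11 over all genes). The lowest were the midzone kinesin Kif23 (−1.26 ± 0.15, adjusted p = 4.4e-06) among G2/M members and Pclaf (−1.01 ± 0.13, adjusted p = 1.2e-05) among S members, with Mki67 at −1.20 ± 0.22 and Stmn1 at −1.07 ± 0.16. Without the fibroblast-like sum of reaction 2 the count was 18. T-like barcodes had 13 members lower, where 14.3% of genes were called, with Cdk1 at −1.51 ± 0.26 (adjusted p = 0.00035) and Mcm3 at −1.40 ± 0.27. DESeq2 called 6, and without the T-like sum of reaction 2 the count was 4. In T-like barcodes DESeq2 also moved the calls over all genes from 2147 higher and 2328 lower to 3003 higher and 1694 lower.

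Endothelial-like barcodes had 20 members lower, where 10.1% of genes were called, with Cdk1 at −2.34 ± 0.35 (adjusted p = 9.9e-05). Rrm2 held only 1 and 2 UMIs there, and its CPM over all other barcodes was 14.0 times as high (4.79–67.9, exact counting interval). DESeq2 called 12, with 2311 genes higher and 1071 lower in place of 1626 and 1645, and the count was 12 without the sum of reaction 1 and 9 without that of reaction 2.

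The phase mix, the ratio of summed UMIs of the 26 G2/M members to those of the 16 S members, set the tissues apart. It was 0.62, 0.67, and 0.77 in TDLN reactions 1 to 3 and 2.53 and 2.39 in MC38 reactions, with no overlap. Among cycling barcodes, those with more distinct S than G2/M members made up 53.8%, 52.5%, and 46.1% in TDLNs and 17.4% and 19.5% in MC38. The S members with high levels in TDLNs, such as Pcna and Mcm6 (48.9, 57.2, and 60.8 CPM), are also used outside S phase, and no cycling was read from the ratio.

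Within MC38 the ratio was 2.57 and 2.44 in Ptprc-free, 2.51 and 2.40 in Ptprc-bearing unnamed, 2.24 and 2.00 in fibroblast-like, and 2.12 and 2.01 in macrophage-like barcodes. The Ptprc-free ratio was higher than the macrophage-like one by 0.28 and than the fibroblast-like one by 0.24 on the log2 scale (mean of 2 reactions), in both reactions. The first difference fell to 0.10 without Pclaf and Ube2c, the members with the highest UMI sums of their lists. T-like barcodes went from 2.30 in reaction 1 to 1.37 in reaction 2. S-leaning barcodes were 16.6% and 18.6% of cycling barcodes in Ptprc-free, and 22.8% and 24.6% in macrophage-like sets.

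**Figure D2:**
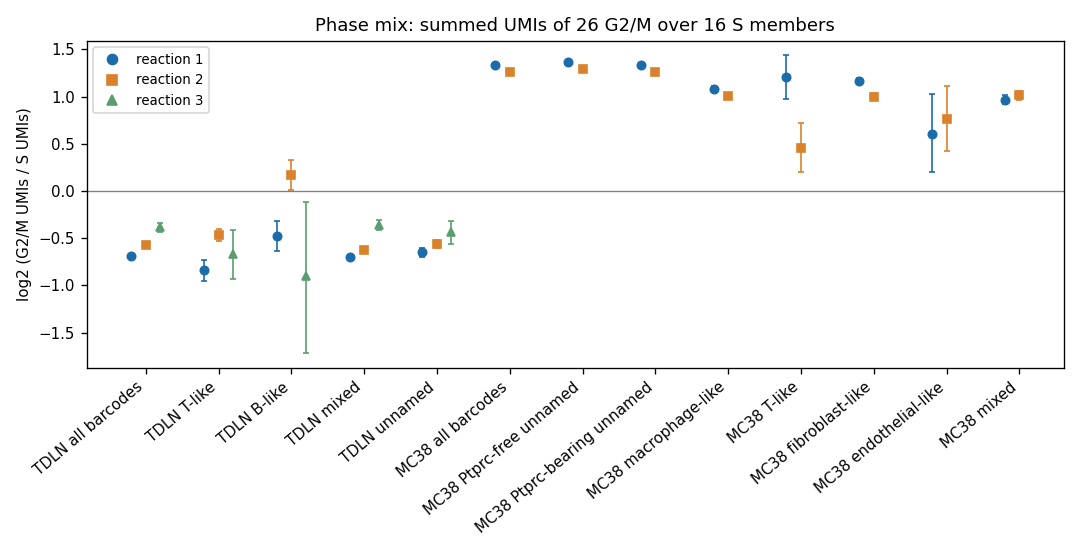
Phase mix in all barcodes of each tissue and in the classes with at least 50 barcodes in every reaction, as log2 of summed UMIs of 26 G2/M members over those of 16 S members; each point is 1 reaction and bars are exact 95% counting intervals. Of the points shown, those of TDLNs lie below 0 except B-like reaction 2, and those of MC38 lie above 0; smaller classes, such as TDLN plasma cell-like barcodes (−0.48, 0.57, and 0.74 in reactions 1 to 3), are left out.

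The published filter kept barcodes under 2500 genes, so the members were compared across that limit. In MC38, 32.9% (32.1–33.7) and 26.2% (25.3–27.2) of barcodes under 2500 genes were cycling, against 46.6% (45.9–47.3) and 45.0% (44.1–45.8) of those with 2500 or more, at equal thinned depth. Macrophage-like barcodes had 28.0% and 24.3% under the limit and 47.0% (41.9–52.02) and 47.1% (43.1–51.1) above it, and fibroblast-like barcodes 6.77% and 3.75% against 18.7% and 13.5%. Ptprc-free barcodes had nearly the same share on both sides, 48.0% and 46.6% under the limit and 48.1% and 47.2% above it. That difference, 0.331 points on average, depended on the call, at −3.21 points when thinned to 2000 UMIs, −2.80 with at least 2 distinct members, 4.29 with at least 5, and 27.9 without thinning. In TDLNs the share was 2.92%, 4.13%, and 4.94% under the limit and 6.43%, 13.6%, and 10.5% of 249, 280, and 532 barcodes above it. Doublets were not removed, and their part in the upper range was not tested.

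For the Ptprc-free barcodes the fit of single members differed from the share. In edgeR, 35 of 43 members were higher at 2500 or more genes, where 26.9% of 14474 genes were called higher (median 0.70 over members, 0.06 over all genes). The CPM, which lack the TMM scaling of the fit, showed a smaller step. In reaction 1 the 42 members summed to 2800 CPM under the limit and 3435 CPM above it. Stmn1 was there at 162 and 164 CPM. Ube2c (1.48 ± 0.19, adjusted p = 1.6e-05), the survivin gene Birc5 (1.35 ± 0.23), and Tk1, the salvage thymidine kinase (1.31 ± 0.20), led. Without the lower-range sum of reaction 1 or 2 the count was 23 or 20. DESeq2 called 25, with a median of 0.49 over members and −0.15 over all genes, and moved calls over all genes from 3894 higher and 3079 lower to 2577 and 4229. In fibroblast-like barcodes 39 members were higher, where 20.3% of genes were called, with Ccnb2 at 2.07 ± 0.25 (adjusted p = 6e-06), Ube2c at 1.97 ± 0.21, and Rrm2 at 1.90 ± 0.24. There DESeq2 also called 39, with 2283 genes higher and 3874 lower in place of 2936 and 3135.

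In macrophage-like barcodes 0 members passed in edgeR, where 0.276% of genes were called higher. At an unadjusted p under 0.05 there were 16, DESeq2 called 6, and the fit with the reaction as a block called 12, where 3.27% of genes were called higher. DESeq2 moved calls over all genes there from 40 higher and 4 lower to 391 and 142.

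**Figure D3:**
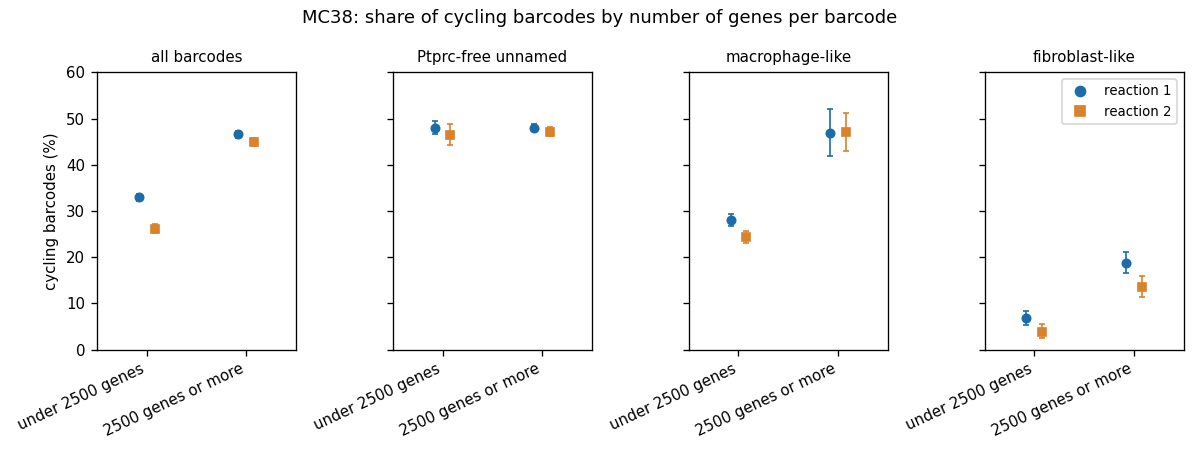
Share of cycling barcodes in MC38, in percent of barcodes with at least 1000 UMIs, on both sides of 2500 genes per barcode, for all barcodes and 3 classes; each point is 1 reaction and bars are exact 95% intervals. Macrophage-like and fibroblast-like barcodes are higher above the limit, and Ptprc-free barcodes lie at 46.6% to 48.1% on both sides.

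The treatment groups asked how CPI and JAK1 inhibition change cells of the tumor. Barcodes with exactly 1 hashtag numbered 9923 and 9276 for isotype, 2145 and 1325 for CPI, 2894 and 2076 for CPI + ABT-317, and 3727 and 2247 for isotype + ABT-317 in reactions 1 and 2. Those with several hashtags (8832 and 5129) or none (6241 and 3279) were left out. Where 1 hashtag had to lead by 1 ln unit, the numbers were 9540 and 5700, 1050 and 625, 3851 and 4894, and 4444 and 1834 in the same order. Group membership thus depended on the rule. Values below are for exactly 1 hashtag unless stated. Cycling barcodes made up 34.5% and 32.0% under isotype, 15.96% and 8.36% under CPI, 45.9% and 46.3% under CPI + ABT-317, and 42.9% and 41.2% under isotype + ABT-317. CPI was lowest in both reactions and CPI + ABT-317 highest, and no treatment overlapped another. The means were 33.3 ± 1.82%, 12.2 ± 5.38%, 46.1 ± 0.24%, and 42.1 ± 1.18% (SD, n = 2 sums each), and an exact permutation test of the 4 treatments over all 105 assignments of the 8 sums gave p = 0.00952, the smallest it can give. Among barcodes under 2500 genes the same exact test gave p = 0.0762. A single pair of treatments, at 2 sums each, cannot go below an exact permutation p of 0.333.

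Depth and class mix moved with treatment. Median UMIs were 5540 and 7553 under isotype, 2582 and 2966 under CPI, 16761.5 and 22991 under CPI + ABT-317, and 16783 and 23947 under isotype + ABT-317. Fibroblast-like barcodes made up 36.7% and 39.2% of CPI barcodes and 3.50% and 3.85% of isotype barcodes, whereas Ptprc-free barcodes made up 20.4% and 15.0% against 44.2% and 42.6%, and macrophage-like barcodes 6.01% and 7.25% against 34.3% and 40.4%. Under CPI + ABT-317, 73.9% and 73.6% were Ptprc-free, and 293 of 2894 and 294 of 2076 barcodes were macrophage-like. Under isotype + ABT-317, 2899 of 3727 and 1788 of 2247 barcodes were Ptprc-free, and 296 and 211 were macrophage-like. The macrophage-like share was thus lower than under isotype in every other treatment, with or without CPI. These shares are of cells sorted by CD45 and remixed. Depth moved within classes as well. Median UMIs of Ptprc-free barcodes were 1712.5 and 2449 under CPI, against 14725.5 and 20918 under isotype and 20410.5 and 27745 under CPI + ABT-317. Those of fibroblast-like barcodes were 4179 and 4994 under CPI against 11450 and 15350 under isotype, and those of macrophage-like barcodes 2086 and 2158 against 3371.5 and 3944. The part of depth and mix in the values over all barcodes, and of depth in those within classes, was not tested. In bulk sums of this kind, fewer cycling cells and less RNA of these genes per cell cannot be told apart.

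Over all barcodes each of the 43 members fell under CPI. Ube2c was at 323 and 331 CPM under isotype, 150 and 160 under CPI, 492 and 590 under CPI + ABT-317, and 438 and 492 under isotype + ABT-317. Pclaf was at 137 and 136 CPM, then 84.4 and 55.3, then 165 and 167, and last 152 and 159 CPM in the same order. For both genes the CPI sums lay below all the other sums. In edgeR 43 of 43 members were lower under CPI than under isotype, where 20.1% of 17563 genes were called lower, with a median log2 change of −1.07 over members and −0.01 over all genes. The cyclin Ccnb2 fell most among G2/M members (−1.51 ± 0.18 SE, adjusted p = 0.00015) and Tk1 among S members (−1.49 ± 0.19, adjusted p = 0.00027), and the large ribonucleotide reductase subunit Rrm1 fell least (−0.52 ± 0.12, adjusted p = 0.0073).

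With ABT-317 after CPI the members were higher. All 43 members were higher under CPI + ABT-317 than under CPI, where 23.4% of genes were called higher (median 1.38 over members, −0.06 over all genes). Ube2c rose by 2.05 ± 0.16 (adjusted p = 5.9e-06), Cdk1 by 1.93 ± 0.16, Tk1 by 1.81 ± 0.20, and Mki67 least, by 0.68 ± 0.25 (adjusted p = 0.044). Both comparisons share the CPI sums. Without CPI, few members passed for ABT-317 in the main fit, which did not pair the sums by reaction. Between isotype + ABT-317 and isotype, Ube2c (0.60 ± 0.15, adjusted p = 0.027) and Cdk1 (0.54 ± 0.15, adjusted p = 0.049) were higher, where 1.08% of genes were called higher. There were 11 members at an unadjusted p under 0.05, DESeq2 called 4, and the fit with the reaction as a block called 30 of 43, where 20.3% of genes were called higher. Without isotype reaction 1 or 2, or isotype + ABT-317 reaction 2, none passed, nor did any with a leading hashtag or under 2500 genes.

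**Figure D4:**
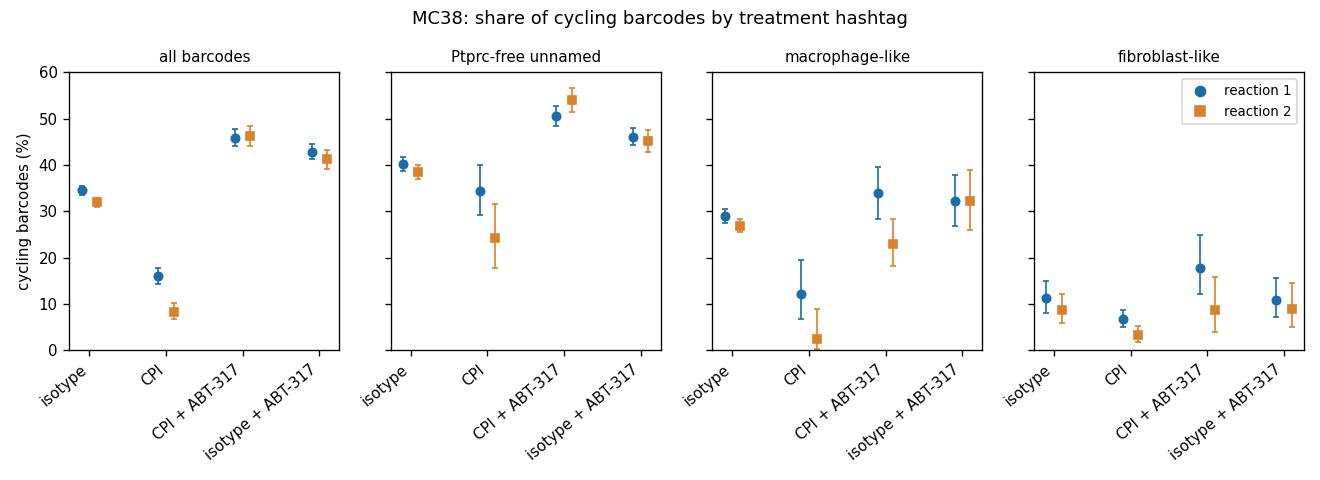
Share of cycling barcodes in MC38 by treatment hashtag, in percent of barcodes with at least 1000 UMIs, for all barcodes and 3 classes; each point is 1 reaction and bars are exact 95% intervals. CPI has the lowest point in each panel and reaction.

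Among macrophage-like barcodes the cycling share was lowest under CPI. Shares were 29.0% (27.5–30.6) and 27.0% (25.5–28.4) under isotype, 12.1% (14 of 116) and 2.53% (2 of 79) under CPI, 33.9% (28.5–39.7) and 23.0% (18.3–28.3) under CPI + ABT-317, and 32.2% in both reactions under isotype + ABT-317. The CPI intervals, 6.76–19.4 and 0.308–8.85, lay below those of isotype, but they cover counting error over barcodes only and do not test the treatment. The 42 members summed to 2464 and 2411 CPM under isotype, 1119 and 399 CPM under CPI, 2746 and 2168 CPM under CPI + ABT-317, and 2735 and 2906 CPM under isotype + ABT-317. The 10 genes that lead the Ptprc-free set stood in macrophage-like barcodes at 131 and 77.2 CPM under isotype, 170 and 78.9 CPM under CPI, and 129 and 61.0 CPM under CPI + ABT-317, and the part of free RNA was not tested.

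Among macrophage-like members, Ube2c was at 189 and 196 CPM under isotype, 48.5 and 21.9 under CPI, 250 and 155 under CPI + ABT-317, and 267 and 305 under isotype + ABT-317. Stmn1 was at 246 and 272 CPM, then 65.8 and 39.5, then 274 and 222, and last 248 and 287 CPM. In edgeR 31 of 43 members fell under CPI, where 8.18% of 8938 genes were called lower (median −1.95 over members, −0.04 over all genes). Birc5 fell by 2.52 ± 0.34 on the log2 scale (adjusted p = 8e-05), Ube2c by 2.44 ± 0.34 (adjusted p = 9.2e-05), Stmn1 by 2.31 ± 0.26 (adjusted p = 1e-05), and Pclaf by 1.88 ± 0.30 (adjusted p = 0.0004). Some calls rested on few molecules. The mitotic kinase Aurka had 1 UMI in both CPI sums together and Mcm5 had 2, and their CPM under isotype were 10.3 (1.85–409) and 9.36 (2.58–77.4) times as high by the exact counting interval. Without 1 sum the count was 11 to 32, the lowest being without CPI reaction 2. Where a hashtag had to lead by 1 ln unit, 18 members fell.

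Under CPI + ABT-317, 24 macrophage-like members were higher than under CPI, where 5.67% of genes were called higher (median 1.91 over members, 0.04 over all genes). Ube2c rose by 2.49 ± 0.35 (adjusted p = 0.00018), Birc5 by 2.48 ± 0.36, and Pclaf by 1.91 ± 0.31 (adjusted p = 0.00075). Without CPI reaction 1 the count was 15, and without CPI reaction 2 it was 7. With a leading hashtag 9 rose, and among barcodes under 2500 genes 12 rose. Between isotype + ABT-317 and isotype no macrophage-like member passed in edgeR, with 1 at an unadjusted p under 0.05, 0 by DESeq2, and 1 with the reaction as a block, where 0.761% of genes were called higher.

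Ptprc-free barcodes moved less under CPI than macrophage-like ones. Their cycling shares were 40.1% and 38.5% under isotype, 34.5% (29.3–40.0) and 24.2% (17.7–31.7) under CPI, 50.6% and 54.0% under CPI + ABT-317, and 46.1% and 45.2% under isotype + ABT-317. The CPI shares were lowest, and in reaction 1 the CPI and isotype intervals overlapped. The members summed to 3137 and 3125 CPM under isotype, 2779 and 3150 under CPI, 3762 and 4030 under CPI + ABT-317, and 3437 and 3617 under isotype + ABT-317. In edgeR 12 of 43 members fell under CPI, where 6.5% of 16157 genes were called lower (median −0.35 over members, −0.04 over all genes). These included Ccnb2 (−0.78 ± 0.23, adjusted p = 0.049), Cdc45, which activates the helicase (−0.69 ± 0.19), and Pclaf (−0.43 ± 0.12), and all 12 also had lower mean CPM. No MCM member passed, and the CPM of Mcm3 were higher under CPI (57.2 and 69.4 against 50.1 and 52.6), as were those of Mcm5 (35.2 and 29.9 against 25.8 and 26.1). The block fit called 26, where 17.5% of genes were called lower, and leaving out an isotype or CPI sum of either reaction left 0 to 3. With a leading hashtag 1 member fell, without the filter on low counts 22 fell, and among barcodes under 2500 genes none passed. Ptprc-bearing unnamed barcodes, the set most like these, had a CPI minus isotype cycling share of −13.5 and −23.7 points. That was nearer to the macrophage-like −16.9 and −24.4 points than to the Ptprc-free −5.66 and −14.3 points.

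Under CPI + ABT-317 against CPI, 27 members rose in Ptprc-free barcodes, where 6.98% of genes were called higher. The 10 genes that lead this set were at 1039 and 1092 CPM under isotype, 1045 and 871 under CPI, and 1371 and 1470 under CPI + ABT-317. Between the last 2 treatments they rose with the members. Cdk1 rose by 1.14 ± 0.19 (adjusted p = 0.0051), Cdc45 by 1.12 ± 0.19, and Ube2c by 1.03 ± 0.24. The count was 5 without CPI reaction 1, 15 without CPI reaction 2, and 10 without CPI + ABT-317 reaction 2. It was 3 with a leading hashtag and 0 among barcodes under 2500 genes. In isotype + ABT-317 against isotype, 0 members passed, where 0.0% of genes were called higher, with 7 at an unadjusted p under 0.05 and 0 by DESeq2, while the fit with the reaction as a block called 33 members higher, where 15.0% of genes were called higher.

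In fibroblast-like barcodes the shares were 11.3% and 8.73% under isotype, 6.75% and 3.25% under CPI, 17.9% and 8.74% under CPI + ABT-317, and 10.9% and 8.92% under isotype + ABT-317. CPI was lowest in both reactions. The members summed to 1337 and 1193 CPM under isotype, 971 and 590 under CPI, and 1717 and 1147 under CPI + ABT-317. The 10 genes that lead the Ptprc-free set were at 282 and 269 CPM, then 211 and 150, then 413 and 341, so that they moved with the members, and the part of free RNA was not tested. The checkpoint kinase Bub1b (−1.66 ± 0.35), Ccnb2 (−0.95 ± 0.21), and Cdk1 (−0.92 ± 0.20) fell under CPI, where 14.8% of 11669 genes were called lower, so that 3 of 43 members is below the background. The block fit called 16 lower and 2 higher, where 23.0% and 26.7% of genes were called, and without CPI reaction 1 there were 9 lower. Without the filter on low counts there were 12 lower. Under CPI + ABT-317 against CPI 8 of 43 members rose, where 13.3% of genes were called higher, so that the count is near the background. Among them were Bub1b (1.71 ± 0.38), Rrm2 (1.35 ± 0.25), and Cdk1 (1.12 ± 0.21). The block fit called 17, where 20.3% of genes were called higher. Without CPI + ABT-317 reaction 1 there were 2, and without CPI reaction 2 there were 4, while with a leading hashtag there were 13.

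**Figure D5:**
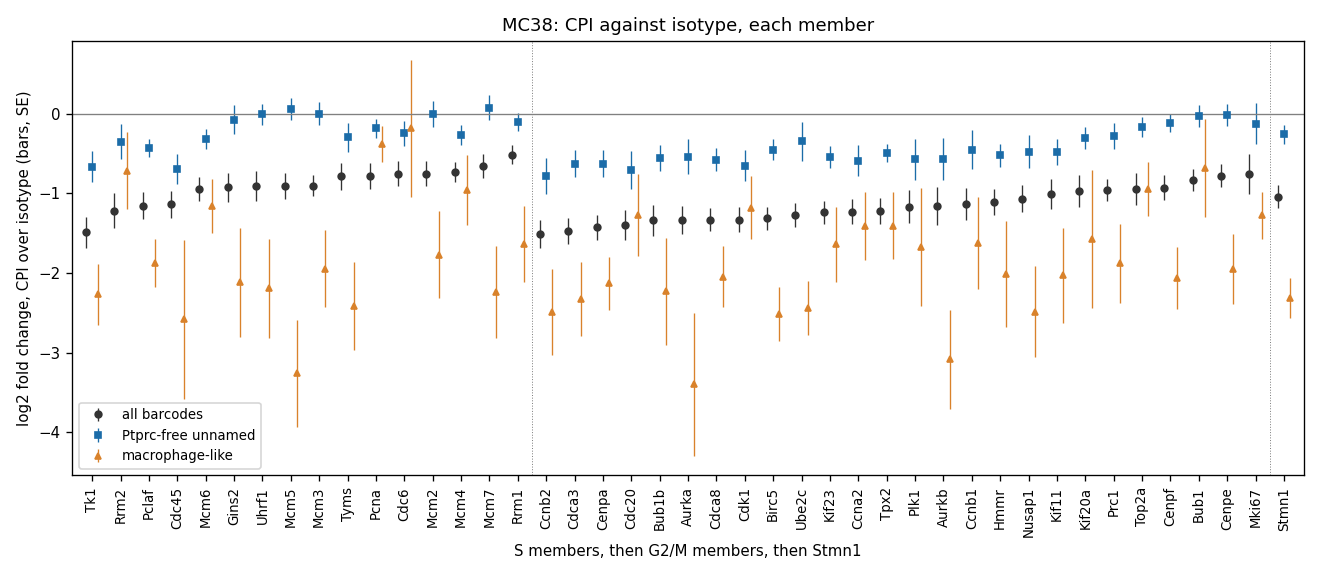
Log2 fold change of each member, CPI over isotype, in MC38, with edgeR standard errors as bars, for all barcodes (circles), Ptprc-free unnamed barcodes (squares), and macrophage-like barcodes (triangles); S members are on the left, then G2/M members, then Stmn1. All 43 circles lie below 0, and most triangles lie below the circles, with the widest bars where CPI sums held few UMIs.

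The difference between classes was itself tested, in a fit added after the data were seen. The CPI against isotype change was lower in macrophage-like than in Ptprc-free barcodes for 19 of 43 members, where 7.61% of 13255 genes were called lower (33 members at an unadjusted p under 0.05, median −1.97 over members and −0.52 over all genes). Birc5 differed by −2.49 ± 0.42 (adjusted p = 0.00053), Pclaf by −1.87 ± 0.36 (adjusted p = 0.0015), and Ube2c by −2.53 ± 0.61 (adjusted p = 0.011). For CPI + ABT-317 against CPI, 9 members rose more in macrophage-like barcodes, where 7.05% of genes were called higher, with Birc5 at 2.02 ± 0.44 (adjusted p = 0.003). Between fibroblast-like and Ptprc-free barcodes 0 members differed in edgeR for CPI against isotype, with 3 at an unadjusted p under 0.05, where 14.2% of genes were called in either direction. For CPI + ABT-317 against CPI there was 1, Bub1b (1.35 ± 0.41), with 4 at an unadjusted p under 0.05, where 5.33% of genes were called higher.

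Other genes of the cell cycle, in 7 lists of 52 genes, were read in the same fits. Over all barcodes under CPI, where 20.1% of all genes were called lower and 24.7% higher, 9 of 10 licensing and checkpoint genes fell, with the geminin gene Gmnn, an inhibitor of origin licensing, at −1.20 ± 0.18, and so did 8 of 8 genes of the spindle checkpoint and chromatid separation, with the kinetochore gene Ndc80 at −1.18 ± 0.18. The mitotic transcription factor Foxm1 fell by 0.79 ± 0.13. Of 5 quiescence and anti-proliferative genes 3 rose, Tob1 by 0.93 ± 0.14, Btg2 by 0.62 ± 0.21, and the thioredoxin inhibitor Txnip by 0.59 ± 0.14. CDK inhibitors split, with 2 higher and 3 lower. Under CPI + ABT-317 against CPI, where 23.4% of all genes were called higher and 30.5% lower, 10 of 10 licensing and 8 of 8 spindle genes rose, and Tob1, Btg2, and Txnip fell.

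In macrophage-like barcodes under CPI, where 8.18% of genes were called lower and 9.1% higher, 3 of 8 G1 cyclins and kinases fell, Ccnd2 by 2.50 ± 0.46, Ccnd1 by 1.55 ± 0.23, and Cdk6 by 1.07 ± 0.27, while Tob1 rose by 2.83 ± 0.46 and Btg1 by 0.93 ± 0.16. Across classes, macrophage-like barcodes held more E2f2 (2.50 ± 0.17) than the other classes. The CDK inhibitor list split there, with 3 of 7 genes higher and 3 lower, Cdkn1a at 2.25 ± 0.16 and Cdkn2b at −2.09 ± 0.22 among them, where 25.6% of genes were called higher and 15.9% lower. It split in Ptprc-free barcodes too, with 2 higher and 3 lower, Cdkn2b at 1.95 ± 0.15 and Cdkn1a at −1.03 ± 0.20 among them, where 32.3% of genes were called higher and 15.9% lower. Ptprc-free barcodes also held more Mybl2, a MuvB partner (1.97 ± 0.21), and less Btg2 (−1.82 ± 0.19). In T-like barcodes 3 of 8 G1 cyclins and kinases were higher and 2 lower, Ccnd3 at 2.21 ± 0.17 and Ccnd1 at −1.52 ± 0.25 among them, where 13.2% of genes were called higher and 14.3% lower.

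Over the 14 class sums of MC38 (7 classes in 2 reactions), the genes outside the list whose level ran most like the summed members among 8783 genes were the histone gene H2az1 (Pearson r = 0.971), Shcbp1 (0.967), Ska1, a kinetochore gene (0.953), Utp3 (0.953), and the ribosomal protein gene Rpl31 (0.942). The points share reactions and depth, and the values are given as a description.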

How the data were processed

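The deposited files hold UMI counts per gene and barcode from 5′ scRNA-Seq, which the authors made with Cell Ranger (7.1.0 for TDLN and 8.0.1 for MC38 in the file headers, whereas the submitters' processing notes name 3.1.0 with GRCm38/mm10). Counts were used as deposited. Barcodes with under 200 genes or 10% or more mitochondrial UMIs were removed, and no doublet caller was run. The members, lists, and tests were chosen with earlier results of these data known, and the thresholds of the class rule (marker density of at least 20 per 10000 UMIs, 80 for macrophage and fibroblast markers, with opposing lists below 5 and 20 per 10000) were set after marker values were seen. Treatment was taken from exactly 1 hashtag above a mixture threshold on ln counts.

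UMI sums by class, range, or treatment and reaction were tested with edgeR 4.0.16 (quasi-likelihood, TMM, filterByExpr, Benjamini-Hochberg over all genes tested, 0.05), and DESeq2 1.42.0 was the alternative. The block was the droplet reaction, whose number is shared by sums of 1 reaction. Deviations of sums of the same reaction from their treatment means correlated at 0.0928 to 0.4107 over 17563 genes. Genes were named if members, by the highest UMI sums and the largest changes past the threshold in each phase list, and other cell cycle genes by list. Scripts were tested on simulated data. Alternatives were thinning depth, the number of distinct members, a class rule without marker density, filters, the block, and leaving out sums.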

Additional observations from a re-analysis of the deposited data

Results flagged for a closer look

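Barcodes with no hashtag of the treatment key were not part of the treatment comparison, and 51.96% (50.6–53.3) and 56.22% (54.4–58.1) of them were cycling in MC38 reactions 1 and 2, above the 34.5% and 32.0% of isotype barcodes. There were 6241 and 3279 such barcodes, with median UMIs of 4112 and 4295. Within the Ptprc-free unnamed set the shares without a hashtag were 55.4% and 62.8%. Barcodes with several hashtags were cycling in 43.8% and 39.3% of cases.

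The change of the members with treatment differed between classes by a test of the difference itself. For CPI against isotype 19 members changed more, downward, in macrophage-like than in Ptprc-free barcodes, where 7.61% of genes were called lower. The median difference was −1.97 over members and −0.52 over all genes. For CPI + ABT-317 against CPI 9 members changed more, upward, where 7.05% of genes were called higher, with medians of 1.65 and 0.36. The macrophage-like CPI sums held 129 and 96 barcodes, and the comparisons share those sums.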

How the results depend on the processing

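Of 222 alternative values of 31 results, 149 were counted as the same as the main value, 66 moved, 3 weakened, and 4 reversed, and the causes were not tested. A change of direction was counted as reversed, so that a value that moved could keep its direction. With at least 5 distinct members per cycling barcode the TDLN differences from the other classes turned to 0.0939 points (T-like) and 0.161 points (B-like), and without 1 reaction they ran from −1.01 to −0.478 and from −1.99 to −0.696. The Ptprc-free minus macrophage-like share was 22.8 points when thinned to 2000 UMIs, 30.3 without thinning, 20.8 with at least 2 and 6.95 with at least 5 distinct members. It was 3.18 under the class rule without marker density, and 18.6 to 20.0 in single reactions. Across 2500 genes, the difference over all barcodes was 41.2 points without thinning and 8.31 with at least 5 distinct members. The Ptprc-free difference was −3.21 when thinned to 2000 UMIs, −2.80 with at least 2 distinct members, 4.29 with at least 5, 27.9 without thinning, and 4.13 at a limit of 3500 genes, and the macrophage-like one was 26.6, 39.2, and 12.1 points with 2000 UMIs, no thinning, and at least 5 distinct members. The phase difference between Ptprc-free and macrophage-like barcodes was 0.0955 without Pclaf and Ube2c. Among barcodes under 2500 genes the treatment differences were −18.2, 17.3, and 7.22 points for CPI minus isotype, CPI + ABT-317 minus CPI, and isotype + ABT-317 minus isotype.

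Counts of members called moved as follows. DESeq2 called 6 in T-like, 12 in endothelial-like, 6 across 2500 genes in macrophage-like, and 4 for isotype + ABT-317 against isotype over all barcodes. Without the filter on low counts there was 1 in TDLN B-like, 1 in macrophage-like barcodes across 2500 genes, 22 for CPI in Ptprc-free, 12 for CPI in fibroblast-like, and 1 for isotype + ABT-317 in Ptprc-free barcodes. With a leading hashtag there were 0 for isotype + ABT-317 over all barcodes, 18 and 9 in macrophage-like barcodes for CPI and for CPI + ABT-317, 1 and 3 in Ptprc-free, and 13 for CPI + ABT-317 in fibroblast-like barcodes. Under 2500 genes there were 0 for isotype + ABT-317 over all barcodes, 12 for CPI + ABT-317 in macrophage-like, and 0, 0, and 1 in Ptprc-free barcodes for CPI, CPI + ABT-317, and isotype + ABT-317, and the fibroblast-like fits could not be run.

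With the replicate block, in which the reaction pairs the sums, edgeR called 1 member in TDLN T-like and 5 in B-like barcodes, 12 across 2500 genes in macrophage-like barcodes, 30 for isotype + ABT-317 over all barcodes, 26 for CPI and 33 for isotype + ABT-317 in Ptprc-free barcodes, 16 and 17 for CPI and CPI + ABT-317 in fibroblast-like barcodes, and 1 for isotype + ABT-317 in macrophage-like barcodes. The block moved no other count given in the text by over 1.5 times.

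Leaving out a whole MC38 reaction leaves no residual degrees of freedom, so single sums were left out, an alternative chosen after seeing the data in which the lone sum is assumed to vary like the other groups. Counts then ran from 0 to 2 in TDLN B-like, 40 to 42 in Ptprc-free, 22 to 23 in macrophage-like, 18 to 28 in fibroblast-like, 4 to 15 in T-like, and 9 to 12 in endothelial-like barcodes. Across 2500 genes they ran from 20 to 28 in Ptprc-free and 31 to 41 in fibroblast-like barcodes and stayed at 0 in macrophage-like ones. Over all barcodes they were 42 to 43 for CPI, 42 to 43 for CPI + ABT-317, and 0 to 2 for isotype + ABT-317. In macrophage-like barcodes they were 11 to 32 and 7 to 23, in Ptprc-free 0 to 3, 5 to 27, and 0, and in fibroblast-like 2 to 9 and 2 to 10. The CPI macrophage-like sums held 129 and 96 barcodes and the endothelial-like sums 55 and 53.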

Other observations

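Cdkn1c, which encodes the CDK inhibitor p57, was higher under CPI in fibroblast-like barcodes. Its level there was 8.47 and 9.28 CPM under isotype, 199.9 and 251.2 CPM under CPI, 11.2 and 13.9 CPM under CPI + ABT-317, and 4.29 and 6.07 CPM under isotype + ABT-317. The CPI sums lay above all the others. In edgeR it rose under CPI by 4.86 ± 0.24 (adjusted p = 1.8e-07) and fell under CPI + ABT-317 against CPI by 4.39 ± 0.26 (adjusted p = 1e-06). In Ptprc-free barcodes the CPI change was −0.47 ± 0.40 (adjusted p = 0.52). The fibroblast-like sums held 787 and 519 barcodes under CPI and 347 and 357 under isotype, and the CPI barcodes were shallower. The class also depended on how it was gated. The part of a change in which cells the class held was not tested. The gene was named after its values were seen.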
